A study of Rattus norvegicus with 8 samples.

Results

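The genes for the subunits of the NMDA receptor, Grin1, Grin2a, Grin2b, Grin2c, Grin2d, Grin3a and Grin3b, and the serine racemase gene Srr were followed in A2B5/OTMP+ cells sorted by flow cytometry from the brain of rats at postnatal day 7. Every probe set whose platform annotation names exactly 1 of these genes was taken, which gave 7 of the 13810 named genes in the files and 11 of the 31142 probe sets tested, 10 on the array type called chip A in the labels and 1 on chip B. Of the 8 genes listed, Srr, which encodes the enzyme that makes D-serine from L-serine, has no value here. Total RNA from 4 biological replicates was hybridized to both array types, so the series holds 8 arrays in 2 groups of 4. The labels call the cells perineuronal oligodendrocytes, meaning oligodendrocytes that lie against neuronal cell bodies. No treatment other than the sort on A2B5, which marks gangliosides on glial precursors, and OTMP is named, and no separate array of another cell population was analysed here. How many animals went into a replicate is not stated in the labels.

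NMDA receptors are glutamate-gated cation channels that open when glutamate and a coagonist, glycine or D-serine, are both bound. Each channel needs the GluN1 subunit encoded by Grin1. It is joined by GluN2 subunits, which bind glutamate and set the kinetics and the magnesium block, or by GluN3 subunits, which bind glycine and lower calcium entry. In the rodent brain Grin2b and Grin2d are expressed early, Grin2a and Grin2c come up after birth, and Grin3a is highest in early postnatal life. Grin2c is known from cerebellar granule cells and from astrocytes, and functional work on rodent white matter has placed GluN1, GluN2C and GluN3A in oligodendrocytes.

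Each deposited value was a ratio of a probe set's signal to an unnamed reference. The direction was taken as cells over reference, which no label states; with the ratio turned, every higher value would be a lower one. A ratio places a gene against that reference only. It does not show whether a subunit was expressed, nor which subunit had the higher level. In bulk RNA, fewer cells of a type and less RNA per cell also cannot be told apart. Below, higher and lower mean that the mean log2 ratio differed from 0, a ratio of 1, by limma over all probe sets of the array type (two-sided, Benjamini-Hochberg adjusted p under 0.05). Errors are SDs over the 4 arrays of a type (n = 4). A second, one-sided limma test asked whether a probe set lay above the panel level, the 95th percentile on each array of a panel of genes from other organs not expected in brain. That level was a ratio of 1.14 to 1.24 on chip A.

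The subunit genes divided. Grin2c and Grin3a stood well above the reference, 1 of the 2 Grin1 probe sets stood slightly above it, and probe sets of Grin1, Grin2a, Grin2d and Grin3b stood below it. On chip A 3 of the 10 probe sets were higher, 5 were lower and 2 were not called, while over all 15866 probe sets of chip A 9.21% were higher and 30.1% lower. The median log2 ratio was -0.20 for the 10 subunit probe sets and -0.11 for all probe sets of chip A. The single chip B probe set was not called, where 5.08% of chip B probe sets were higher and 27.1% lower. Above the panel level lay 1 of the 11, the Grin2c probe set, against 2.01% of all chip A probe sets and 1.56% of those on chip B.

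**Figure D1:**
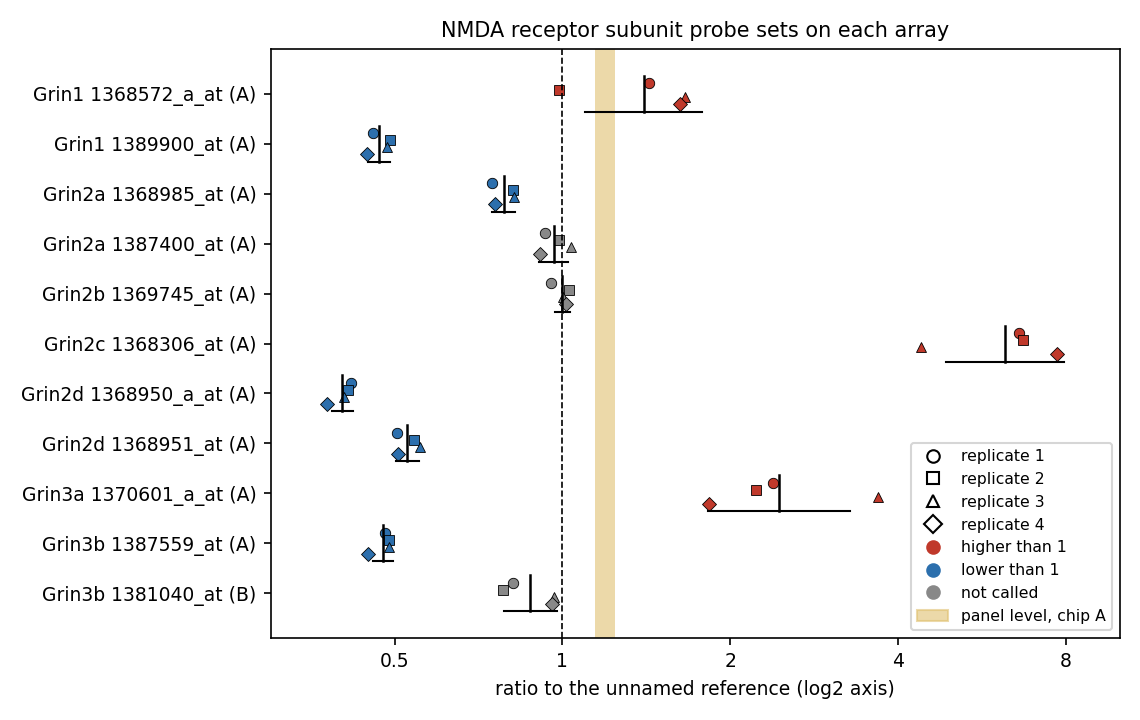
Ratio to the unnamed reference (x axis, log2 spacing) of each subunit probe set on each of the 4 arrays of its type, chip A or chip B in brackets. Vertical bars are means of the log2 ratios, horizontal bars span 1 SD on either side, colours give the limma call against a ratio of 1, and the band spans the panel level of the 4 chip A arrays. All 4 Grin2c and all 4 Grin3a points lie right of the band, and the points of the second Grin1 probe set, Grin2d and the chip A Grin3b probe set lie between 0.378 and 0.555.

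Grin2c encodes GluN2C, a subunit that gives channels of small conductance and weak magnesium block. Its ratios were 6.59, 6.71, 4.39 and 7.72 in replicates 1 to 4. Replicate 3 was the lowest and still lay above the largest panel value of its own array, a ratio of 3.01. The mean log2 ratio was 2.64 ± 0.35, a mean ratio of 6.22, with a limma adjusted p of 0.000143. It ranked 27th from the top among the 15866 probe sets of chip A, which would be 27th from the bottom with the ratio turned. Above the panel level the mean log2 excess was 2.38 (limma adjusted p = 0.0101). That call was lost without replicate 1 (log2 excess 2.34, limma adjusted p = 0.0916) and without replicate 4 (2.25, 0.0533), while the call against a ratio of 1 held with any replicate left out (limma adjusted p from 0.00114 to 0.00182).

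Grin3a encodes GluN3A, the glycine-binding subunit of the immature brain. Its ratios were 2.39, 2.23, 3.68 and 1.83 in replicates 1 to 4. All 4 lay above the panel level of their arrays, and replicate 3, the lowest for Grin2c, was the highest for Grin3a. The mean log2 ratio was 1.29 ± 0.42 (95% interval 0.86 to 1.72; limma adjusted p = 0.00284), and 98.0% of chip A probe sets had a lower mean, or a higher one with the ratio turned. Its mean log2 excess over the panel level was 1.03, which did not pass (limma adjusted p = 0.056, and 0.0512 to 0.296 with 1 replicate left out).

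Grin1, the subunit that every NMDA receptor needs, gave opposite calls from its probe sets. Probe set 1368572_a_at had ratios of 1.43, 0.987, 1.66 and 1.63 in replicates 1 to 4. Replicate 2 alone was not above 1, and the mean log2 ratio was 0.48 ± 0.35 (limma adjusted p = 0.0472). This call did not hold with a trended, robust prior (limma adjusted p = 0.0685), without replicate 1 (0.122), without replicate 3 (0.14) or without replicate 4 (0.15). Probe set 1389900_at had ratios of 0.457, 0.491, 0.484 and 0.446, below 1 on all 4 arrays, with a mean log2 ratio of -1.09 ± 0.07 (limma adjusted p = 0.000169). The probe sets are annotated to different target sequences of the gene and did not overlap on any array. The first exceeded the second by 1.58 ± 0.39 on the log2 scale, so the direction for Grin1 depends on the probe set read.

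Grin2a and Grin2b encode GluN2A and GluN2B, the main glutamate-binding subunits of forebrain neurons. Grin2b had ratios of 0.956, 1.029, 1.001 and 1.016 in replicates 1 to 4. These sat on the reference, with a mean log2 ratio of 0.00 ± 0.05 and a 95% interval of -0.16 to 0.16, and only 2.02% of chip A probe sets varied less between replicates. Grin2a probe set 1368985_at had ratios of 0.749, 0.816, 0.819 and 0.756, all below 1. Its mean was -0.35 ± 0.07 (limma adjusted p = 0.00979). Probe set 1387400_at, annotated to the same target sequence, had ratios of 0.93, 0.987, 1.04 and 0.91 and was not called at -0.05 ± 0.08 (limma adjusted p = 0.584). The first lay below the second on all 4 arrays, with a difference of 0.30 ± 0.03 on the log2 scale between them.

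Grin2d encodes GluN2D, a slow subunit of the developing brainstem, midbrain and interneurons, and both of its probe sets were lower. Probe set 1368950_a_at had ratios of 0.417, 0.412, 0.405 and 0.378 in replicates 1 to 4, a mean log2 ratio of -1.31 ± 0.06 (limma adjusted p = 0.000117). Probe set 1368951_at had 0.505, 0.541, 0.555 and 0.507, a mean of -0.93 ± 0.07 (limma adjusted p = 0.000277). The ranges of these probe sets did not overlap, but both were below 1 on every array.

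Grin3b encodes GluN3B, the GluN3 subunit best known from motor neurons. Its chip A probe set 1387559_at had ratios of 0.48, 0.489, 0.489 and 0.448, and a mean log2 ratio of -1.07 ± 0.06 (limma adjusted p = 0.00017). Its chip B probe set 1381040_at had 0.814, 0.781, 0.965 and 0.958 and was not called, at -0.19 ± 0.16 (limma adjusted p = 0.133). Neither had a ratio above 1 on any array, in contrast to all 4 arrays for Grin3a. Centring moved each array by its own median, a mean log2 shift of 0.12 over chip A arrays and 0.10 over chip B arrays. It changed none of the 11 calls, though the uncalled Grin2a probe set 1387400_at moved to 0.07.

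The lower subunit probe sets varied little between replicates. On chip A the 5 lower ones had SDs from 0.06 to 0.07, and the 3 higher ones had SDs from 0.35 to 0.42. Over all chip A probe sets the median SD was 0.212. It was 0.174 for those with means in the range of the lower subunit probe sets and 0.377 for those in the range of the higher ones, near the SDs of the higher subunit probe sets. All 7 chip A subunit probe sets that were not higher had an SD under 0.1, a limit set after the values were seen. On the same array type 45.8% of all lower calls, 5.68% of higher calls, 22.5% of all probe sets, 65.1% of panel probe sets and 18 of 27 bacterial mRNA control probe sets had one. Of the panel probe sets on chip A, 61.6% were lower than 1 and 1.16% were higher. The lowest of the bacterial controls had ratios of 0.386, 0.411, 0.405 and 0.381, within the range of the Grin2d probe set 1368950_a_at. Only 4 of the 27 controls had a mean log2 ratio under -0.9, and the highest mean was -0.05. Whether the lower subunit probe sets detected their transcripts was not tested.

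**Figure D2:**
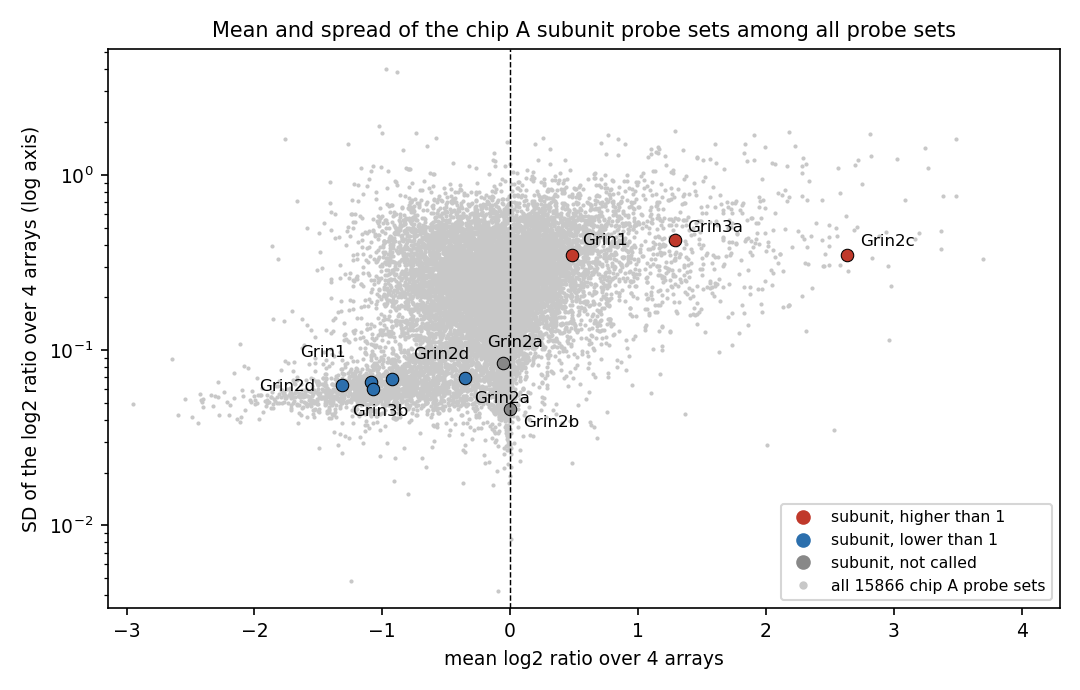
Mean log2 ratio (x axis) against its SD over the 4 arrays (y axis, log spacing) for all 15866 chip A probe sets in grey, with the 10 subunit probe sets of that type coloured by their limma call. The lower and uncalled subunit probe sets lie at SDs under 0.1, and the 3 higher ones at 0.35 to 0.42.

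For the subunits that lay above the reference, Grin2c and Grin3a, and for Grin1, which any of their channels needs, the 250 bases before the gene's RefSeq start are shown as regulatory context (rat assembly GRCr8, all on the minus strand, written 5′ to 3′ along the gene). Motifs were searched on both strands, and capitals mark their matches. An E box, bound by helix-loop-helix factors, was written CANNTG. The CCAAT box was searched by the letters of its name. A GC box, bound by factors of the Sp1 family, was written GGGCGG. The letters searched for the TATA box were TATAAA. Adjacent matches run together.
Grin2c, chr10:101005139-101005388: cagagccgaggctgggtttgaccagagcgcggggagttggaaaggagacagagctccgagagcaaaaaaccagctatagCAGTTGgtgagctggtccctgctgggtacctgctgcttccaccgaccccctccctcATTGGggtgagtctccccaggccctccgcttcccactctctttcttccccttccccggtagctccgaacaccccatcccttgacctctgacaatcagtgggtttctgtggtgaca
Grin3a, chr5:69001559-69001808: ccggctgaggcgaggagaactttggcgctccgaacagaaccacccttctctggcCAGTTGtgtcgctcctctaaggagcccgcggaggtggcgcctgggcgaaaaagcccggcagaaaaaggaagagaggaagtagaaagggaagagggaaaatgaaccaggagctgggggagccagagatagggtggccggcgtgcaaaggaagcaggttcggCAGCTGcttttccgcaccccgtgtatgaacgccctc
Grin1, chr3:28528755-28529004: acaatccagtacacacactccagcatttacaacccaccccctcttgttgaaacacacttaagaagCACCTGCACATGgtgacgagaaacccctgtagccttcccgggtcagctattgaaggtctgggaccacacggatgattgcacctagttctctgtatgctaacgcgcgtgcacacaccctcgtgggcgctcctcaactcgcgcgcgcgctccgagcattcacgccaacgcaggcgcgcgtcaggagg

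These windows differed most in CpG dinucleotides, of which Grin2c held 8, Grin3a 16 and Grin1 19, where the median over 33469 rat windows of the same length was 5. An E box stood once before Grin2c and 2 times each before Grin3a and Grin1, and 65.5% of all windows held one. The CCAAT box before Grin2c, read on the other strand, is found in 34.0% of windows. No GC box or TATA box letters were found in any of the 3 windows, where 30.5% and 12.9% of all windows held one. These matches describe the sequence and do not bear on the ratios.

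Genes that supply or clear the coagonist were read beside the receptor, as Srr itself had no value. Of 14 measured genes for the synthesis, transport and breakdown of D-serine and glycine, 3 had only higher calls, 3 only lower, 2 both and 6 none. Over all 13810 named genes, 7.7% had only higher calls, 36.1% only lower and 1.52% both. The list's median log2 ratio was -0.06, against -0.18 over all genes, each by its median probe set. For a gene with an even number of probe sets, here and below, this was the lower of the middle ones. These lists were written down with earlier results of these data known, and the counts are descriptions.

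Slc7a10, the astrocyte and neuron exchanger known as Asc-1 that carries D-serine and glycine, had ratios of 8.68, 7.91, 7.36 and 7.33. It was high on every array, at a mean log2 ratio of 2.96 ± 0.11 (limma adjusted p = 9.73e-05). Slc1a4, the neutral amino acid exchanger ASCT1, stood at 0.92 ± 0.30 on chip B (limma adjusted p = 0.00555). Slc6a9, the glycine transporter of glia, was higher by 2 of its 3 probe sets, the highest at 1.43 ± 0.50 (limma adjusted p = 0.0033), and lower by the third, at -0.71. Slc6a5, the glycine transporter of glycinergic neurons, stood at -1.06 ± 0.05 (limma adjusted p = 0.000168) with even ratios from 0.465 to 0.497. Shmt1, which converts serine and glycine, was lower at -0.71 ± 0.51 (limma adjusted p = 0.0403), with replicate 1 at 1.02 and the others at 0.454 to 0.559. Gldc, the decarboxylase of the glycine cleavage system, had 1 higher probe set at 1.09, 1 near the reference at -0.003 and 1 lower at -1.33 ± 0.04.

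Scaffold and trafficking partners hold NMDA receptors at the postsynaptic density. Of 28 measured, 3 had only higher calls (10.7%, against 7.7% of all genes), 8 only lower (28.6%, against 36.1%), 2 both and 15 none. The median log2 ratio was -0.09, against -0.18 over all genes. With each gene read by its median probe set, 1 was higher and 8 lower, where 5.59% of all genes were higher and 33.5% lower. The higher ones were led by the density protein gene Dlgap1 at 1.38 ± 0.21 (limma adjusted p = 0.000292), whose other 3 probe sets were not called. Dlg3, which encodes SAP102, reached 1.16 ± 0.57 (limma adjusted p = 0.0107) by 1 of its 4 probe sets and was called lower by 2. Nsmf, the messenger from synaptic NMDA receptors to the nucleus, stood at 1.11 ± 0.23 (limma adjusted p = 0.000816). Lowest were Shank1 at -1.53 ± 0.05 (limma adjusted p = 9.94e-05), which also had a higher probe set at 0.75, Dlgap3 at -1.30 ± 0.06 (0.000117) and Dlgap2 at -1.15 ± 0.06 (0.000141).

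Of 23 measured signalling partners, 4 had only higher calls (17.4%, against 7.7% of all genes), 7 only lower (30.4%, against 36.1%), 3 both and 9 none. The median log2 ratio was -0.13, against -0.18 over all genes. By median probe sets 2 were higher and 7 lower, where 5.59% of all genes were higher and 33.5% lower. Of the calcium/calmodulin kinase genes, Camk2g stood at 1.60 ± 0.23 (limma adjusted p = 0.000232) by 1 probe set and was not called at 0.10 by the other. Camk2a, the forebrain neuron form, was lower by all 4 of its probe sets, from -1.53 ± 0.08 (limma adjusted p = 0.000102) to -0.27. The death-associated kinase gene Dapk1 stood at 1.42 ± 0.45 by 1 of 2 probe sets (limma adjusted p = 0.00245) and the casein kinase gene Csnk2a1 at 1.36 ± 0.34 by 1 of 5 probe sets (0.0022). The protein kinase C gene Prkcb was lower at -1.23 ± 0.35 by 1 of 2 probe sets (limma adjusted p = 0.00181). Src, a tyrosine kinase that acts on GluN2 subunits, was higher by 2 of its 4 probe sets, at 0.54 and 0.43, lower by another at -1.20 ± 0.05 (limma adjusted p = 0.000131) and not called by the fourth at 0.47 ± 1.07.

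Among the other glutamate receptors, 4 of 17 genes had higher calls (23.5%, against 7.7% of all genes), 9 had lower calls (52.9%, against 36.1%) and 4 had none. The median log2 ratio was -0.12, against -0.18 over all genes. With each gene read by its median probe set, 4 were higher and 7 lower, where 5.59% of all genes were higher and 33.5% lower. The highest was the metabotropic receptor gene Grm3 at 2.39 ± 0.53 (limma adjusted p = 0.000609). Its ratios were 6.26, 5.02, 7.55 and 3.20 in replicates 1 to 4, highest in replicate 3, where Grin2c was lowest. Grid1, a delta receptor gene, was lowest at -1.59 ± 0.05 (limma adjusted p = 9.73e-05). The lowest of the 27 bacterial controls on chip A stood at -1.34 ± 0.05 and the highest at -0.05, with 4 under -0.9. Whether the lower probe sets of the partner lists detected their transcripts was not tested.

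**Figure D3:**
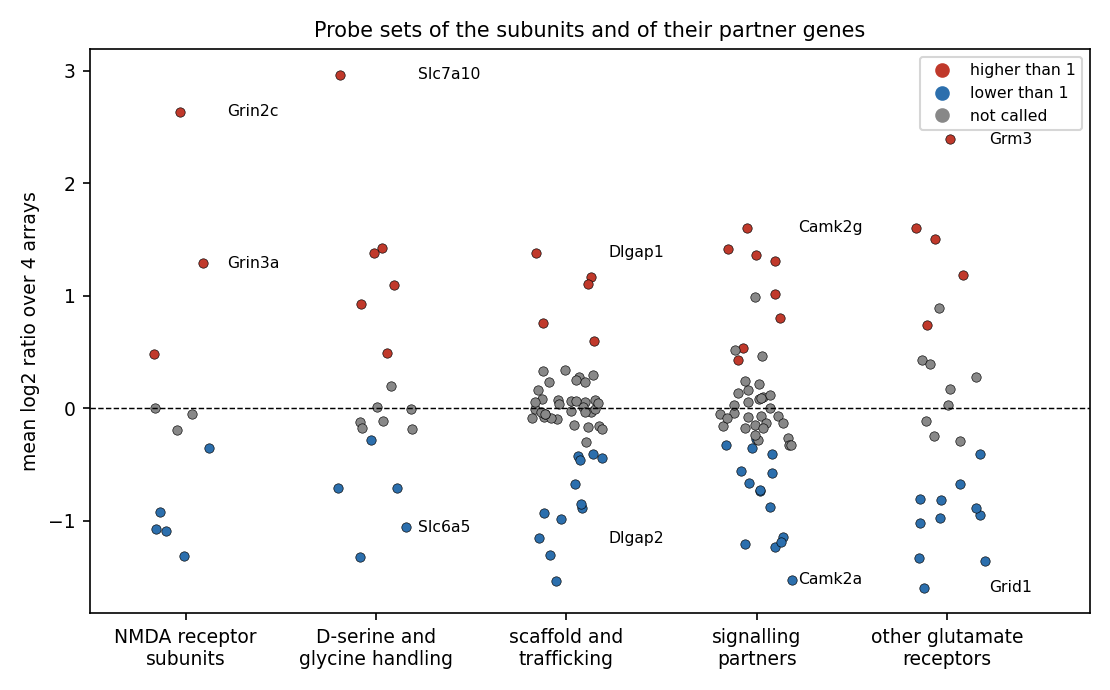
Mean log2 ratio over 4 arrays (y axis) of every single-gene probe set of the NMDA receptor subunits and of the 4 partner lists, 1 point per probe set, coloured by its limma call against a ratio of 1. Points are spread sideways for visibility. Grin2c at 2.64 and Slc7a10 at 2.96 stand highest, and all 5 columns hold calls in both directions.

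Markers of cell types that the sort could hold are given beside the subunits, and their part in the subunit ratios was not tested. Over all genes 7.7% had only higher calls and 36.1% only lower. Of 10 astrocyte markers 7 had only higher calls, 1 only lower, 1 both and 1 none. The list's median ratio, each gene by its median probe set, was 1.98, 1.74, 2.10 and 1.98 in replicates 1 to 4. The highest probe set was one of the water channel gene Aqp4, at 2.82 ± 1.28, and the lowest that of Sox9, a glial transcription factor, at -1.73 ± 0.01. Gfap, the astrocyte filament, stood at 1.41 ± 0.20, S100b was not called at 0.12, and the transporter gene Slc1a3 had 2 higher probe sets and 1 lower at -0.28. Of 12 neuron markers 5 had only higher calls, 2 only lower, 2 both and 3 none, with list medians of 0.876, 1.06, 0.969 and 1.22. Each neuron marker with 2 probe sets entered these medians by its lower one. Gad1 was so read at -0.97 rather than 2.32, and Tubb3 at -0.44 rather than 0.70, so these medians do not show that neuron markers were level with the reference. The highest and the lowest probe set, at 2.32 ± 0.72 and -0.97 ± 0.06, were both of Gad1, which makes GABA. Snap25, a synaptic fusion protein, stood at 1.70 ± 0.70 and Syt1, a sensor of vesicle release, at -0.45 ± 0.03. Of 6 measured markers of cerebellar granule neurons, where Grin2c is abundant, 1 was higher (Pax6), 3 were lower and 2 were not called. At an unadjusted limma p under 0.05, 2 were higher and 3 lower. Neurod1, not called, had ratios of 4.74, 0.907, 3.23 and 2.49 (limma adjusted p = 0.0503). The granule cell receptor gene Gabra6 had ratios of 0.575, 0.471, 0.467 and 0.433 on chip A.

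Of 8 oligodendrocyte lineage markers 3 were higher (Bcan, Pdgfra and Ptprz1) and 1 had only a lower call (Olig2). The other 4 were not called (Cspg4, Nkx2-2, Olig1 and Sox10). Their median ratio was 1.24, 0.794, 1.53 and 1.38 in replicates 1 to 4. Replicate 2 was lowest, as it was for Grin1 probe set 1368572_a_at, and replicate 3 highest, as it was for both that probe set and Grin3a, while Grin2c was lowest there. Grin3a was lowest in replicate 4. The order was not particular to this list. The astrocyte and the microglia and macrophage list medians were also lowest in replicate 2 and highest in replicate 3. Of 8 measured myelin markers 0 were higher by limma (1 at an unadjusted p under 0.05) and 3 were lower. Of 8 endothelial and mural markers 1 was higher and 1 lower. Of 8 microglia and macrophage markers 0 were higher by limma (0 at an unadjusted p under 0.05) and 3 lower, and neither of the 2 measured erythroid markers was called. These counts stand against 7.7% of all genes with only higher and 36.1% with only lower calls. A ratio near 1 does not show whether a cell type was present, so these counts do not check the label of the sort.

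**Figure D4:**
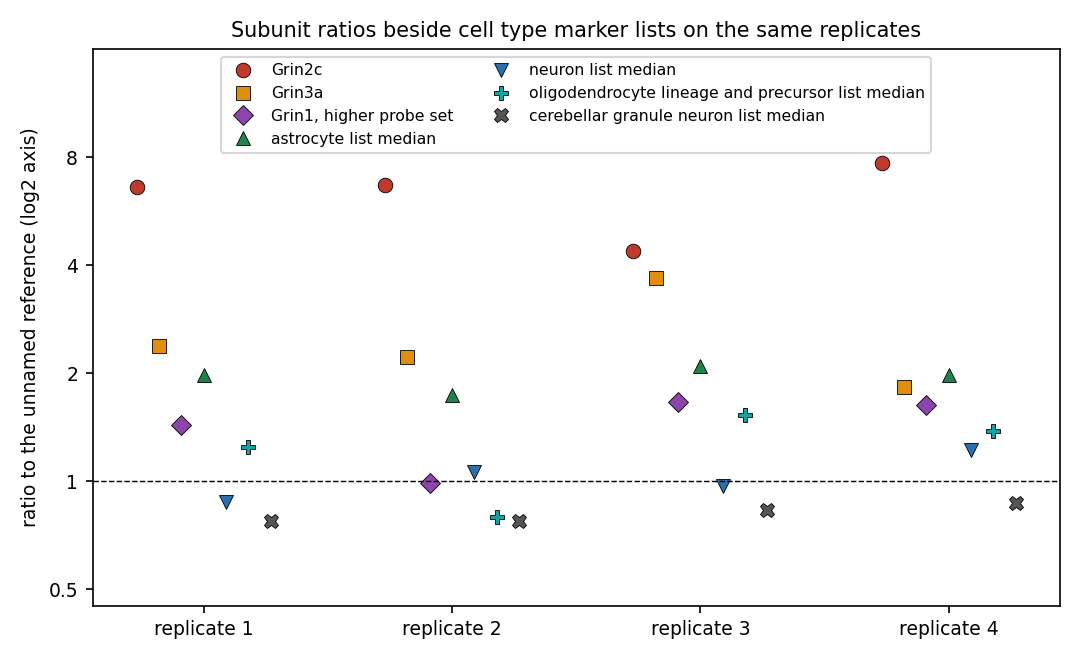
Ratio to the unnamed reference (y axis, log2 spacing) in each replicate for Grin2c, Grin3a and Grin1 probe set 1368572_a_at on chip A, beside the median ratio of 4 cell type marker lists, whose genes are measured on chip A or chip B. Each listed gene enters by its median probe set, the lower middle one for an even number. Grin2c lies above every list median in all 4 replicates, and in replicate 3 Grin2c is at its lowest, 4.39, and Grin3a at its highest, 3.68.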

How the data were processed

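RNA was purified on Qiagen columns and biotin-labelled, per the labels' protocols, and RMA was a processing tool per the submitters' processing notes. The values deposited by the authors were linear ratios per probe set to a reference that is not named. The linear scale was read from the values, and the direction was taken as cells over reference, which no label states. The identity of the reference and any centring are unknown. The deposited ratios were put on the log2 scale. Median ratios in replicates 1 to 4 were 0.903, 0.93, 0.946 and 0.907 for chip A, then 0.888, 0.906, 0.967 and 0.963 for chip B.

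Control probe sets were left out, 57 per type. An intercept was fitted with limma 3.58.1 in R 4.3.3, with Benjamini-Hochberg adjustment at 0.05 over the 15866 probe sets of chip A or the 15276 of chip B, and tested on simulated data. The prior added 2.31 and 1.52 degrees of freedom. An exact sign-flip permutation test of 4 arrays cannot go below p = 0.125, so calls rest on limma's assumed normal distribution as well as on that prior. The p-values measure the spread between these replicates only. The panel had 86 probe sets of chip A but only 5 of chip B. Each chip B array therefore took the level of the same-numbered chip A array, moved by the median log2 difference over 157 shared probe sets.

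A gene was called by any of its single-gene probe sets. Its median probe set, used for list medians, was the middle one by mean log2 ratio, and the lower middle one for an even number. Every subunit probe set was named, and of each partner list up to 3 called genes at either end. Members, lists and tests were chosen with earlier results of these data known. A planned comparison of protein sequences was not run. The alternatives were another prior, array centring, another panel level, median probe sets and leaving out each replicate.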

Additional observations from a re-analysis of the deposited data

How the results depend on the processing

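Against a ratio of 1, the 11 subunit probe sets gave 66 values under other settings, of which 62 kept their side of the threshold. The other 4 were all of Grin1 probe set 1368572_a_at. Of the 62, 58 kept their sign too, and the 4 that did not were uncalled values near 0 (Grin2b without replicate 2, 3 or 4, and Grin2a probe set 1387400_at when centred). Above the panel level 64 of 66 kept their side, 62 of them with their sign. With the panel's maximum the uncalled excess of Grin3a was -0.14 and that of Grin1 probe set 1368572_a_at -0.95. The other 2 were Grin2c without replicate 1 or 4, so that the number of subunit probe sets above the level ran from 0 to 1 with a replicate left out (at 0, 2 had an unadjusted limma p under 0.05). The panel test is the less stable over all probe sets. On chip A 319 lay above the level, 52 with the panel's maximum, 175 with a trended, robust prior, and 4 to 202 with a replicate left out, fewest without replicate 1 (4) and 4 (58). On chip B the count was 239, with 12, 0 (limma; 832 at an unadjusted p under 0.05) and 21 to 486, fewest without replicate 4. Centring each array moved the share of higher among all calls on chip A to 33.7%, against 23.5% uncentred. With each gene's median probe set, lower genes for D-serine and glycine handling numbered 3, against 5 with any probe set. Higher scaffold genes numbered 1 against 5 and higher signalling genes 2 against 7. For an even number of probe sets the lower middle one was taken, which moves such genes towards lower readings. The cause of these changes was not tested, beyond the fewer probe sets or arrays that a setting leaves. Intensities were not used here, so how far a probe set stood above background is unknown. No paired analysis was possible because the array types hold the same replicates and no groups were compared.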

Other observations

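The arrays had a common order in most of the subunit probe sets near or below the reference. In 5 of the 7 chip A subunit probe sets that were not higher than 1, replicates 2 and 3 both exceeded replicates 1 and 4, as in 34.3% of all chip A probe sets, and the array medians had that order too. Grin2b and Grin2d probe set 1368950_a_at, which were not higher, did not follow it. Neither did Grin2c, Grin3a and the first Grin1 probe set.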
